A study of Mus musculus with 15 samples.

Results

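The 8 genes described here, Irf8, Klf4, Gfi1, Id2, Runx1, Spi1, Myb and Trib1, encode regulators of the choice between myeloid fates. They were chosen by name from the 19937 genes measured, with earlier results of these data known but not by a threshold on their values. Each was read by 1 probe set. RNA came from bone marrow progenitors of female C57BL/6 mice, enriched for cKit, sorted by flow cytometry and collected 3 weeks after conditional deletion of floxed Cebpa, the gene for the transcription factor C/EBPα. There were 15 microarrays in 5 groups of 3. At the earlier stage, preGM, sorted as cKit+ cells without lineage markers, Sca1, CD150, CD41, FcgRII or Endoglin, the control was cebpa +/+ and the mutant cebpa fl/p30. At the later stage, GMP (granulocyte-monocyte progenitors, which have FcgRII on the surface and otherwise the same gate save for Endoglin), the control was cebpa fl/+ and the mutants were cebpa fl/p30 and cebpa fl/BRM2. All 5 groups carried the Mx1 Cre transgene (spelled Mx1Ce in the labels of the +/+ animals), whose interferon-responsive promoter is active in many cell types. After Cre acts, fl/p30 cells keep an allele that gives the short p30 isoform, fl/BRM2 cells keep a mutant allele named BRM2, and fl/+ cells keep a single wild-type allele. The controls of the stages therefore differ in genotype, so stage and control genotype cannot be told apart in any comparison between them. Each array came from 1 animal, and the 3 fl/p30 animals, here named by replicate number, each gave a preGM and a GMP array, so 12 animals gave the 15 arrays.

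C/EBPα is the factor that multipotent cells need to enter the granulocyte-monocyte path, and it acts together with Spi1 (PU.1) and Runx1 at many myeloid genes. Further along, Irf8 and Klf4 favour monocytes and dendritic cells, while Gfi1 favours neutrophils and represses monocyte and stem cell genes. Id2 blocks the DNA binding of E proteins, Myb maintains immature dividing progenitors, and Trib1 is an adaptor that leads C/EBPα to degradation through the COP1 ubiquitin ligase.

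Promoter sequences are shown for Irf8, Id2 and Gfi1, the genes with the largest spread of group means among the 8, each from 250 bases before to 50 bases after an annotated start (RefSeq, GRCm38.p6). The table of promoters held 9 windows for 6 of the 8 genes. Spi1 and Trib1 had no entry. Irf8 and Gfi1 had 2 windows each, of which the one further upstream is shown. The Irf8 window lies at chr8:120736108-120736407 on the + strand, the Id2 window at chr12:25096043-25096342 on the - strand, and the Gfi1 window at chr5:107725756-107726055 on the - strand. Capitals mark a match to TTNNGNAA on either strand, a loose form of the C/EBP motif.
Irf8: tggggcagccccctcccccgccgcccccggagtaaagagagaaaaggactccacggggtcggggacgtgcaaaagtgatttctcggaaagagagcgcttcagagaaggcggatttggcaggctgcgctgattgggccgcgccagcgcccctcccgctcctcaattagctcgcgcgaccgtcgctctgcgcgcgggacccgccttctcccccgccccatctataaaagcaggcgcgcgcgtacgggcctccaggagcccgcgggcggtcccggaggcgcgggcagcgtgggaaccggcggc
Id2: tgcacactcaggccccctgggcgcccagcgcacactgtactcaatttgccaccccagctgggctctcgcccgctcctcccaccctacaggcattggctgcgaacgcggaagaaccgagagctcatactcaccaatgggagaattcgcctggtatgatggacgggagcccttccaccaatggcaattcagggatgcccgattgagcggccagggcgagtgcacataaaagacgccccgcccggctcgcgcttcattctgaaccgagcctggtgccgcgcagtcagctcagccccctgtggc
Gfi1: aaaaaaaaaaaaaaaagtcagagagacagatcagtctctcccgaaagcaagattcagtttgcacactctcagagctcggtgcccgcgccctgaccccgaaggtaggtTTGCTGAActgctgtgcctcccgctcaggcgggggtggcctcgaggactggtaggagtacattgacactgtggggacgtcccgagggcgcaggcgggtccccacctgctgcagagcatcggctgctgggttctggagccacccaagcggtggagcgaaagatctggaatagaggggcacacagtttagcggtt
The Gfi1 window held the only match to TTNNGNAA among the 9 windows, against 40.7% of 32841 promoter windows of the same length. The RUNX motif TGTGGT, found in 16.8% of all windows on either strand, occurred 2 times in 1 Runx1 window (chr16:92826025-92826324, - strand). The 3 windows printed held no match to the ETS motif GGAAGT (23.8% of all windows), TGTGGT or the GATA motif AGATAA (11.2%). The Irf8 window shown held 1 match to the MYB motif AACNGNC (32.8%), and the Id2 and Gfi1 windows shown 1 each to the E-box CANNTG (72.3%). The Irf8 window not shown held 2 matches to AACNGNC and 2 to CANNTG, and the Gfi1 window not shown 1 to CANNTG. A match is a string of letters, and binding was not measured here.

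Values are log2 expression after the authors' robust multi-array average (RMA), so a difference of 1 is a change of 2-fold. They rank arrays for a gene and do not compare one gene with another. Array medians lay between 6.03 and 6.23, and values near them may be mostly background. Cebpa itself was 8.70, 8.10 and 8.34 in fl/+ GMP, 8.59, 8.48 and 8.86 in fl/BRM2 GMP, 8.68, 9.22 and 9.31 in fl/p30 GMP, 8.58, 8.61 and 8.53 in +/+ preGM and 9.28, 8.90 and 9.10 in fl/p30 preGM. Cebpa was 0.69 higher in fl/p30 than in fl/+ GMP (adjusted p = 0.0367, limma), in groups that overlapped. In fl/p30 preGM it was 0.52 higher than in +/+ (adjusted p = 0.204), without overlap, and in fl/BRM2 GMP 0.27 higher than in fl/+ (adjusted p = 0.562). The probe set was not placed against the floxed, p30 and BRM2 alleles, so these values do not check the deletion. The sort marker Fcgr3 was 2.98 higher in control GMP than in control preGM and 2.35 higher in fl/p30 GMP than in fl/p30 preGM, in the direction of the gate. Fcgr2b, the gene for FcgRII, had means of 7.18 and 8.66 in control preGM and GMP, and 6.61 and 7.59 in fl/p30. Of 6 sort gate genes measured, 2 were called higher and 2 lower in GMP between the control stages, where 10.2% of all genes were called. Between the fl/p30 stages 1 was called higher, where 0.642% of all genes were called. Itga2b, the gene for CD41, which the gate excludes, was 1.04 higher in fl/p30 than in fl/+ GMP (adjusted p = 0.0244, limma). Its mean was 7.89 in fl/BRM2 GMP. Spread differed between groups: the SD within a group, as a root mean square over genes, was smallest in +/+ preGM (0.165) and largest in fl/+ GMP (0.319). In sorted bulk RNA, fewer cells of a type and less RNA per cell cannot be told apart.

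**Figure D1:**
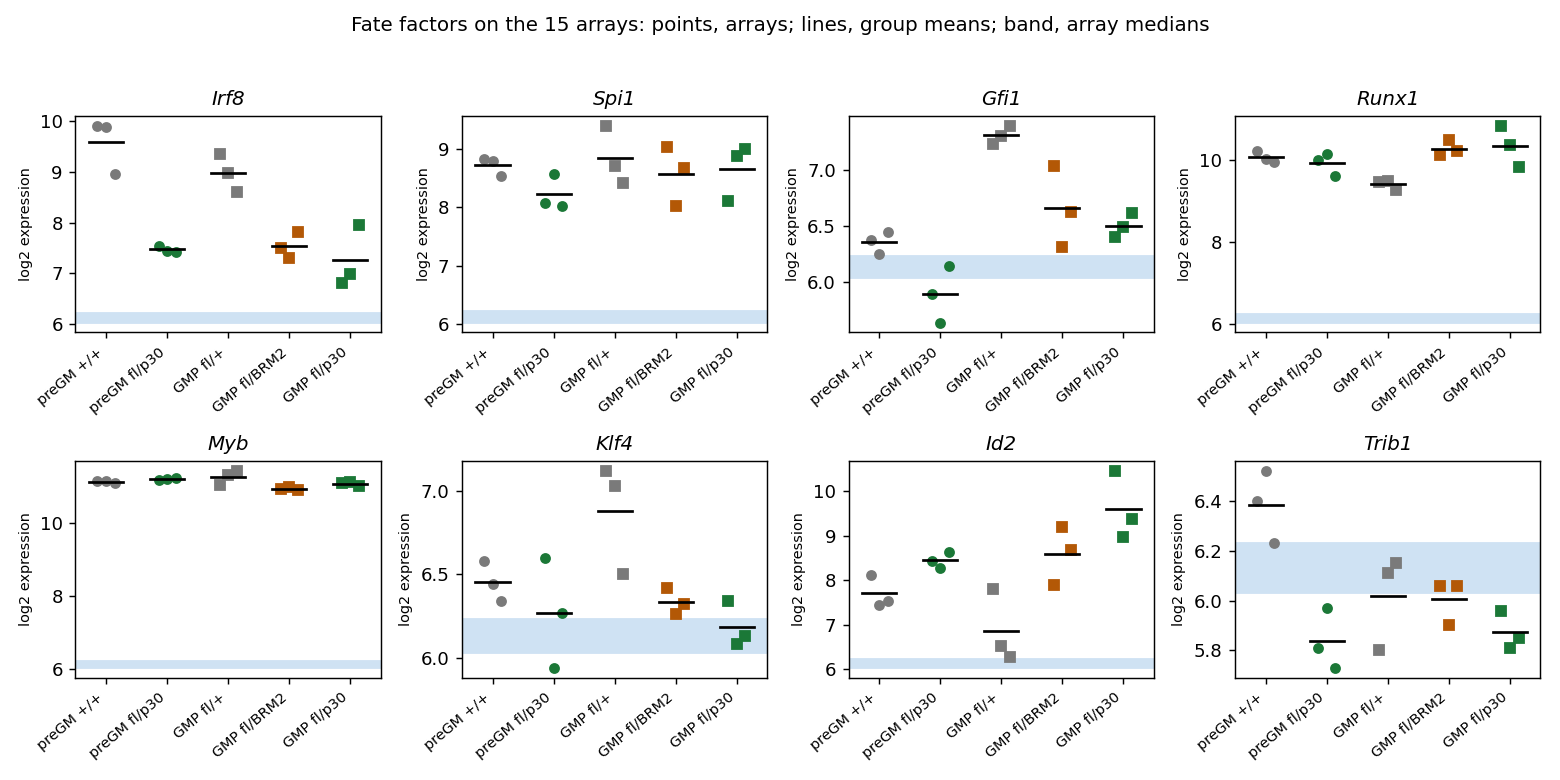
Log2 expression of the 8 genes, 1 panel per gene; points are arrays, short lines are means of the 3 arrays of a group, and the blue band spans the 15 array medians (6.03 to 6.23). Irf8 is at or above 8.60 in every control array and at or below 7.96 in every mutant array, and Id2 has its highest mean in fl/p30 GMP.

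In fl/p30 GMP, 5 of the 8 genes differed from fl/+ GMP: Id2 and Runx1 were higher, and Irf8, Gfi1 and Klf4 were lower. Over all genes 6.06% were called in this comparison (limma, adjusted p under 0.05, 4.69% higher and 1.37% lower). The same 5 genes did not overlap between the groups, against 17.4% of all genes. In fl/BRM2 GMP, which shares its fl/+ control arrays with that comparison, 3 of 8 were called, with Irf8 lower and Id2 and Runx1 higher, where 2.53% of all genes were (1.89% higher, 0.642% lower). Groups did not overlap for 6 of the 8, against 15.2%. In fl/p30 preGM against +/+ preGM, 2 of 8 were called, Irf8 and Trib1, both lower, against 1.68% of all genes (1.03% lower), and 5 of 8 did not overlap, against 25.1%. The median absolute difference of the 8 genes was 0.76, 0.60 and 0.48 in these comparisons in that order, and over all genes 0.15, 0.13 and 0.14. The 8 genes were chosen with earlier results known, so the all-gene values are given as a description and not as a test. They take in dim genes: 10775 of the 19937 genes had a group mean at or above the median of all gene means. The count of the 8 genes called was 3 without fl/p30 GMP replicate 1 or 2 in the first comparison, and 0 without fl/+ GMP replicate 2 or fl/BRM2 GMP replicate 2 in the second.

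**Figure D2:**
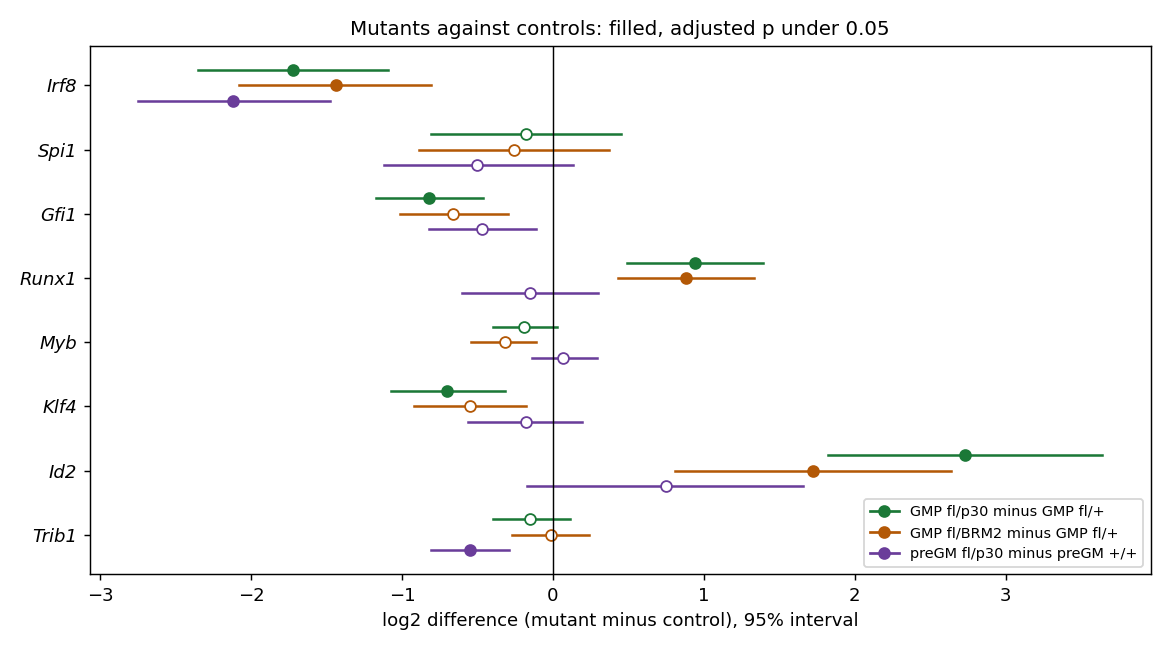
Difference of group means, mutant minus control, on the log2 scale for each gene in the 3 mutant-control comparisons; bars are 95% intervals of the limma fit and filled points have an adjusted p under 0.05. Irf8 is below 0 in all 3, from -2.12 to -1.44, and Id2 reaches 2.73 in fl/p30 GMP.

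Irf8, the interferon regulatory factor needed for monocytes and dendritic cells, was low in every mutant array. In preGM it was 9.91, 9.89 and 8.97 in +/+ and 7.54, 7.45 and 7.43 in fl/p30. Among GMP arrays, the fl/+ values were 9.35, 8.98 and 8.60, the fl/BRM2 values 7.50, 7.30 and 7.81, and the fl/p30 values 6.82, 6.99 and 7.96. The lowest control array thus stood above the highest mutant array at both stages. The difference was -2.12 ± 0.30 (SE; 95% interval -2.75 to -1.48; 4.34-fold lower; adjusted p = 0.0027, limma) in fl/p30 preGM. It was -1.72 ± 0.30 (-2.35 to -1.09; 3.29-fold lower; adjusted p = 0.00329) in fl/p30 GMP and -1.44 ± 0.30 (2.72-fold lower; adjusted p = 0.0186) in fl/BRM2 GMP. The preGM call held whichever array was left out, with the adjusted p at most 0.0213. The third +/+ preGM array, lowest for Irf8 in its group, had a mean of 8.64 over 11 B lymphoid markers, against 6.85 and 6.94 in the other two; without it the Irf8 difference was -2.43. The fl/BRM2 call was lost without fl/+ replicate 2 or fl/BRM2 replicate 2 (adjusted p at most 0.119), and the fl/p30 GMP call when only the arrays compared were fitted (adjusted p = 0.0787). The group order was +/+ preGM, fl/+ GMP, fl/BRM2 GMP, fl/p30 preGM, fl/p30 GMP, and only the step from fl/+ GMP to fl/BRM2 GMP separated neighbours without overlap.

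Klf4, a zinc finger factor that promotes monocyte differentiation, had its highest mean in fl/+ GMP. It read 7.12, 7.03 and 6.50 in those arrays, against 6.42, 6.26 and 6.32 with fl/BRM2 and 6.34, 6.08 and 6.13 with fl/p30. Neither mutant overlapped the control, but the mutant values lay within or close to the band of array medians. Klf4 was -0.70 ± 0.17 from control in fl/p30 GMP (adjusted p = 0.0298, limma) and -0.55 ± 0.17 in fl/BRM2 GMP, which missed the threshold (adjusted p = 0.127) and passed it without fl/+ replicate 3 (-0.74, adjusted p = 0.0407). The fl/p30 call was lost without fl/+ replicate 1 or 2 or without any 1 of the 3 fl/p30 arrays (adjusted p at most 0.108), with only the arrays compared (0.185), and after a further quantile normalization. In preGM the values were 6.58, 6.44 and 6.34 in +/+ and 6.60, 5.94 and 6.27 in fl/p30, overlapping groups with an adjusted p of 0.686.

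Gfi1, the zinc finger repressor of the neutrophil branch, separated the control stages and was lower in the mutants' GMP. The arrays of +/+ preGM gave 6.37, 6.25 and 6.45 and those of fl/p30 preGM gave 5.89, 5.63 and 6.14. In GMP, fl/+ gave 7.24, 7.31 and 7.40, fl/BRM2 7.04, 6.31 and 6.63, and fl/p30 6.40, 6.49 and 6.62. No mutant array reached its stage's control, and in fl/p30 preGM the values were near or below the array medians. Gfi1 was -0.82 ± 0.17 from control in fl/p30 GMP (1.76-fold lower; adjusted p = 0.00932, limma). This call held without any single array (adjusted p at most 0.0469) and was lost without both arrays of the replicate 1 animal (0.0637). In fl/BRM2 GMP it was -0.66 ± 0.17, just outside the threshold (adjusted p = 0.051), and without fl/BRM2 replicate 1, the array nearest the control, the adjusted p was 0.00886. In preGM the difference was -0.47 ± 0.17 (adjusted p = 0.212).

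Id2, an inhibitor of E proteins that supports innate lymphoid and dendritic cells, moved the other way. The GMP arrays read 7.81, 6.51 and 6.27 for fl/+, 7.90, 9.19 and 8.67 for fl/BRM2 and 10.45, 8.96 and 9.38 for fl/p30. Every mutant GMP array was above every control GMP array, although replicate 1 of fl/+ and replicate 1 of fl/BRM2 lay close together. The rise was 2.73 ± 0.43 (95% interval 1.82 to 3.64; 6.64-fold; adjusted p = 0.00169, limma) in fl/p30 GMP and 1.72 ± 0.43 (3.30-fold; adjusted p = 0.0478) in fl/BRM2 GMP. Leaving out arrays one at a time gave 2.31 to 3.21 in fl/p30 GMP and kept the call; with only the arrays compared the adjusted p was 0.0709. The fl/BRM2 call was lost in 10 of the 15 leave-outs (any preGM array, or replicate 2 or 3 of fl/+ or fl/BRM2 GMP), with an adjusted p of at most 0.264, and with only the arrays compared. In preGM, Id2 was 8.12, 7.44 and 7.54 in +/+ and 8.44, 8.27 and 8.63 in fl/p30. These groups did not overlap, but the difference of 0.75 (95% interval -0.17 to 1.66) was not called (adjusted p = 0.46); with only the arrays compared it was (0.74, adjusted p = 0.0427).
Markers of T and NK cells, which express Id2, moved in the same comparisons. Of 12 measured, 6 were higher in fl/p30 GMP (4.69% of all genes), 2 in fl/BRM2 GMP (1.89%) and 3 in fl/p30 preGM (0.647%), and none was lower. The median difference of the 12 was 0.68, 0.05 and 0.14 in that order. Their mean level ran from 6.11 to 6.25 in fl/+ GMP, 6.70 to 6.90 in fl/BRM2 GMP, 7.21 to 7.32 in fl/p30 GMP, 6.10 to 6.19 in +/+ preGM and 6.87 to 6.95 in fl/p30 preGM. The genes that rose in fl/p30 GMP were Gzmb, the granzyme of cytotoxic cells that mast cells also make, from a mean of 7.30 to 11.93, the chemokine gene Ccl5 from 6.97 to 9.26, the signalling adaptor gene Lat from 7.39 to 9.44, Cd7 from 6.37 to 7.35, Cd3g from 4.17 to 5.13 and Klrd1 from 4.47 to 5.15. Those called in fl/BRM2 GMP were Gzmb, at a mean of 11.81, and Lat, at 9.25. The T cell receptor genes Cd3d, Cd3e and Cd3g and the NK receptor gene Ncr1 had group means from 4.09 to 6.31 over the 5 groups. The part of these cells in the Id2 values was not tested.

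Runx1, the DNA-binding core of the core-binding factor that sets up blood stem cells and myeloid enhancers, was lowest in fl/+ GMP. It was 9.46, 9.50 and 9.27 there, 10.14, 10.49 and 10.22 in fl/BRM2 GMP and 10.84, 10.38 and 9.83 in fl/p30 GMP. Control GMP lay below every other array of the series, and the mutant GMP values lay around those of preGM. In preGM the values were 10.22, 10.04 and 9.96 in +/+ and 10.01, 10.16 and 9.61 in fl/p30, which overlapped (difference -0.15, 95% interval -0.60 to 0.30, adjusted p = 0.795, limma). In GMP the difference was 0.94 ± 0.21 in fl/p30 (1.92-fold; adjusted p = 0.0162) and 0.88 ± 0.21 in fl/BRM2 (1.84-fold; adjusted p = 0.0402). The fl/p30 call was lost without fl/+ replicate 3, without fl/p30 replicate 1 or 2 (adjusted p at most 0.0721), without both arrays of the replicate 1 animal (0.70, adjusted p = 0.0903) and with only the arrays compared (0.18). The fl/BRM2 call was lost in 9 leave-outs (each +/+ preGM array, fl/p30 preGM replicate 1, fl/+ or fl/BRM2 GMP replicate 2 or 3, and fl/p30 GMP replicate 2; adjusted p at most 0.223) and after a further quantile normalization.

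Spi1 and Myb, both needed from the stem and progenitor stages onward, passed the threshold in none of the comparisons as fitted on all arrays. Spi1, the ETS factor PU.1, read 9.39, 8.70 and 8.42 for fl/+ GMP, 9.03, 8.02 and 8.68 in fl/BRM2 GMP and 8.11, 8.87 and 8.99 in fl/p30 GMP. In preGM it was 8.83, 8.80 and 8.54 in +/+ and 8.07, 8.57 and 8.03 in fl/p30. The 3 GMP groups overlapped throughout. The intervals of the difference still allow changes of size: -0.81 to 0.45 in fl/p30 GMP, -0.89 to 0.37 in fl/BRM2 GMP and -1.12 to 0.13 in fl/p30 preGM (adjusted p = 0.798, 0.782 and 0.478, limma). Myb was the steadiest of the 8 genes, with group means from 10.96 to 11.28. It was 11.06, 11.34 and 11.44 in fl/+ GMP, 10.96, 10.99 and 10.91 in fl/BRM2 GMP and 11.10, 11.15 and 11.04 in fl/p30 GMP. All 3 fl/BRM2 arrays were below every other GMP array, by a difference from control of -0.32 ± 0.10 (adjusted p = 0.119). In fl/p30 GMP the difference was -0.19 (95% interval -0.40 to 0.03, adjusted p = 0.331). Without fl/+ replicate 1, the lowest fl/+ array, Myb was called in both mutants, at -0.43 in fl/BRM2 (adjusted p = 0.00994) and -0.29 in fl/p30 (adjusted p = 0.0492), and array weights called it in fl/BRM2 (-0.42, adjusted p = 0.00914). Without that array 2218 of all genes were called in fl/BRM2 and 3078 in fl/p30, and array weights called 2187 in fl/BRM2. On all arrays 505 were called in fl/BRM2 and 1209 in fl/p30. Values of 11.17, 11.16 and 11.11 in +/+ preGM and 11.20, 11.21 and 11.24 in fl/p30 preGM did not overlap, at a difference of 0.07 (adjusted p = 0.797).

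Trib1, the adaptor for C/EBPα degradation, had its highest level in +/+ preGM. The arrays read 6.40, 6.52 and 6.23 in +/+ preGM and 5.81, 5.97 and 5.73 in fl/p30 preGM. At the GMP stage, the fl/+ arrays read 5.80, 6.11 and 6.15, the fl/BRM2 arrays 6.06, 5.90 and 6.06, and the fl/p30 arrays 5.96, 5.81 and 5.85. The +/+ preGM arrays lay at or above the upper end of the band of array medians, the others within or below it, and the +/+ preGM arrays did not overlap any other group. The preGM difference of -0.55 ± 0.12 was called (adjusted p = 0.0329, limma). That call was lost without any 1 of the +/+ preGM arrays or without fl/p30 preGM replicate 1 or 3 (adjusted p at most 0.158), and without both arrays of the replicate 1 animal (0.106). The GMP differences were -0.15 (95% interval -0.40 to 0.11, adjusted p = 0.549) in fl/p30 and -0.01 (-0.27 to 0.24, adjusted p = 0.978) in fl/BRM2, at levels within or below that band.

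Set directly against each other, fl/p30 and fl/BRM2 GMP differed in none of the 8 genes, and 1 of all genes was called (0.00502%; limma). At an unadjusted p under 0.05 there were 688 genes, among them 1 of the 8, Id2. Id2 was 1.01 ± 0.43 higher in fl/p30 (95% interval 0.10 to 1.92; unadjusted p = 0.0325, adjusted p = 1). The interval for Irf8 was -0.91 to 0.36, for Gfi1 -0.51 to 0.20, for Runx1 -0.38 to 0.51, for Klf4 -0.52 to 0.23, for Spi1 -0.55 to 0.71, for Trib1 -0.39 to 0.12 and for Myb -0.08 to 0.35. These leave room for differences of up to 0.91 for Irf8, so the alleles are not shown to act alike. Myb alone of the 8 did not overlap between them, against 8.33% of all genes.

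Between stages, Gfi1 alone was called in the controls, where 10.2% of all genes were. It was 0.96 ± 0.17 higher in fl/+ GMP than in +/+ preGM (1.95-fold; adjusted p = 0.00384, limma), and the adjusted p stayed at or under 0.0214 in every alternative. Runx1 was -0.67 (adjusted p = 0.056), Id2 -0.84 (0.19), Irf8 -0.61 (0.17), Klf4 0.43 (0.115) and Trib1 -0.36 (0.0645), none of them called. Runx1 was called with only the arrays compared (adjusted p = 0.0337), array weights (0.012), dim genes left out (0.0491) and without fl/p30 GMP replicate 1 (0.0251) or 3 (0.0244). Id2 was called without fl/+ GMP replicate 1 (-1.31, 0.0286) and with array weights (-1.23, 0.0276), Irf8 with array weights (-0.87, 0.0483), Klf4 without fl/+ GMP replicate 3 (0.62, 0.0429) and Trib1 after a further quantile normalization (-0.43, 0.0262). Of all genes, 4686 were called without fl/+ GMP replicate 1 and 4660 with array weights, in place of 2036. Groups did not overlap for 3 of the 8, against 34% of all genes.

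In the fl/p30 animals none of the 8 was called between stages, where 0.642% of all genes were; 2475 genes and 2 of the 8, Gfi1 and Id2, had an unadjusted p under 0.05. Groups did not overlap for 3 of the 8, against 17.2%. Gfi1 was 0.61 ± 0.17 higher in GMP (95% interval 0.26 to 0.97; adjusted p = 0.126, limma). With the shared animal as a random block, Gfi1 passed (adjusted p = 0.0303) and 681 genes were called in place of 128. With the animal as a fixed block in the fl/p30 arrays alone, its adjusted p was 0.107. Gfi1 was higher in the GMP array of every animal: 5.89 to 6.40 in animal 1, 5.63 to 6.49 in animal 2 and 6.14 to 6.62 in animal 3. Id2 was also higher in the GMP array of each animal, 8.44 to 10.45, 8.27 to 8.96 and 8.63 to 9.38, at a mean difference of 1.15 ± 0.43 (adjusted p = 0.262, and 0.0953 with the animal as a random block). Runx1 and Spi1 were higher in the GMP array of each animal as well, with mean differences of 0.42 (adjusted p = 0.438) and 0.43 (adjusted p = 0.613). Myb was lower in the GMP array of each animal, 11.20 to 11.10, 11.21 to 11.15 and 11.24 to 11.04, at a mean difference of -0.12 (adjusted p = 0.697). Irf8 was lower in the GMP array of animals 1 and 2 and higher in that of animal 3, at 7.96 against 7.43.

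**Figure D3:**
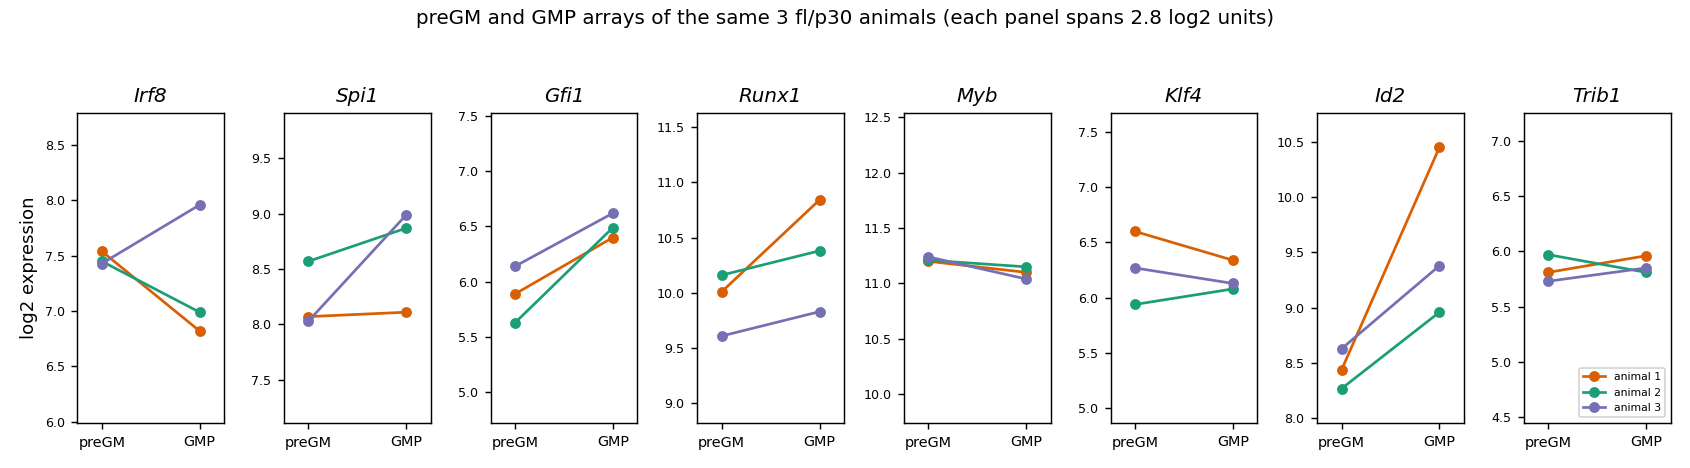
Log2 expression in the preGM and GMP arrays of the 3 fl/p30 animals, 1 panel per gene, with a line joining the arrays of an animal and all panels spanning the same number of log2 units. Gfi1, Id2, Runx1 and Spi1 are higher in the GMP array of all 3 animals, while Irf8, Klf4 and Trib1 go in both directions and Myb is lower in all 3.

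Whether the p30 effect differed between stages was tested as an interaction. None of the 8 was called, and 1 of all genes was (0.00502%; limma). At an unadjusted p under 0.05 there were 2616 genes and 3 of the 8. The p30 effect on Id2 was 1.99 ± 0.60 larger in GMP than in preGM (adjusted p = 0.216) and that on Runx1 1.09 ± 0.30 larger (adjusted p = 0.173). For Irf8 the effects of the stages differed by 0.40 (95% interval -0.50 to 1.30, adjusted p = 0.669). Without fl/+ GMP replicate 1, the fl/+ array with the highest Id2, the Id2 interaction was called (2.46, adjusted p = 0.0161). That fit called 1482 of all genes in the interaction, in place of 1. Without fl/p30 GMP replicate 3, the fl/p30 GMP array with the lowest Runx1, the Runx1 interaction was called (1.35, adjusted p = 0.0303), among 117 of all genes.

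Family members and partners were read from lists of named genes. They are to be set against the 4.69% of all genes called higher and 1.37% called lower in fl/p30 GMP. In lists this short either share comes to less than 1 gene, so 1 call is not read as a result about a list. In fl/p30 GMP, 3 of 5 Runx family genes and partners rose: Cbfa2t3, the ETO-family corepressor ETO2, by 1.08 (adjusted p = 0.0015), Runx3 by 0.76 and Cbfb, the partner that Runx proteins need for stable DNA binding, by 0.39. The Runx count was 1 without fl/+ GMP replicate 3 or fl/p30 GMP replicate 1 or 2. Of 10 ETS factors beside Spi1, only Elf4 rose (0.86, adjusted p = 0.00461), and of 6 Id and E proteins beside Id2 only Tcf12, the E protein HEB (0.93, adjusted p = 0.00304). Both counts were at least 1 in every leave-out, and the ETS count was 4 without fl/+ GMP replicate 1. Among 7 IRF genes only Irf2 rose (0.78, adjusted p = 0.0463), and that count was 0 in every leave-out except that of fl/+ GMP replicate 1. Of 11 Klf genes, Klf7 rose (1.12, adjusted p = 0.00667) and Klf2 fell by 0.63 (adjusted p = 0.0285); no Klf gene fell without fl/+ GMP replicate 2 or 3 or any 1 of the fl/p30 GMP arrays. Gfi1b, the erythroid and megakaryocytic relative of Gfi1, rose by 0.87 (adjusted p = 0.0249), opposite in sign to Gfi1, and was not called without fl/+ GMP replicate 2 or 3 or fl/p30 GMP replicate 2. Mybl2, a cell cycle relative of Myb, fell by 1.24 (adjusted p = 0.0152), a call lost without fl/+ GMP replicate 2 or fl/p30 GMP replicate 1. None of 7 Tribbles and COP1 genes was called in the mutant-control comparisons. In fl/BRM2 GMP the only call in these lists was Gfi1b (0.96, adjusted p = 0.0266), and in fl/p30 preGM the only one was Klf7 (1.21, adjusted p = 0.0111). The former was lost without replicate 2 or 3 of fl/+ or fl/BRM2 GMP, and the latter without +/+ preGM replicate 1 or 2 or fl/p30 preGM replicate 1.

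**Figure D4:**
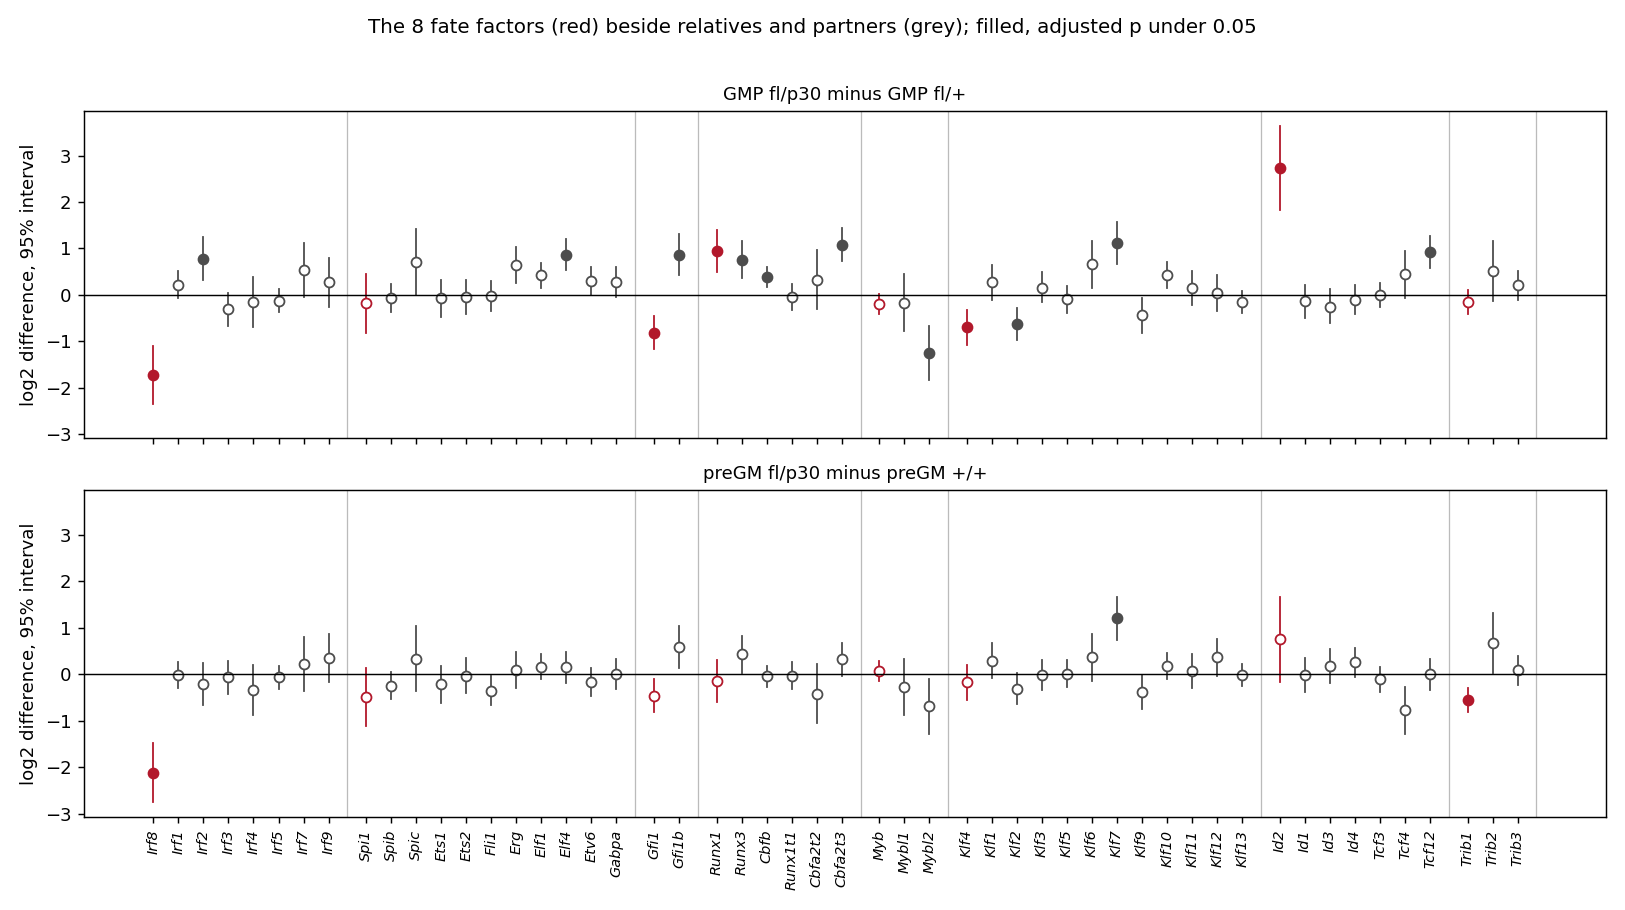
Log2 difference, fl/p30 minus control, of the 8 genes (red) beside the measured members of their families and partners (grey), in GMP and in preGM. In GMP Irf8 (-1.72) and Id2 (2.73) lie outside the range of their relatives. So do Klf4 (-0.70), Spi1 (-0.18) and Trib1 (-0.15), of which Spi1 and Trib1 are not called. Gfi1 (-0.82) and Gfi1b (0.87) lie on opposite sides of 0.

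Effector genes, and genes listed as targets of these regulators, were counted in the same way. Whether the regulators act on them here was not tested. In fl/p30 preGM, 6 of 18 monocyte and dendritic effector genes fell (1.03% of all genes) and none rose. Their median difference was -0.88, against 0.03 over all genes. F13a1, a coagulation factor subunit made by monocytes, fell by 5.07 (adjusted p = 0.000306, limma). Ly86, which encodes the MD-1 partner of the receptor RP105, fell by 3.32 (adjusted p = 0.0329) and the macrophage perforin gene Mpeg1 fell by 2.42 (adjusted p = 0.0103). The mean over the 18 genes ran from 8.11 to 8.38 in +/+ preGM and from 6.93 to 6.99 in fl/p30 preGM. The count ran from 2, without +/+ preGM replicate 1 or 2, to 10, without fl/p30 GMP replicate 3; it was 3 without +/+ preGM replicate 3 or fl/p30 preGM replicate 2 or 3. In fl/p30 GMP F13a1 fell by 3.02 (adjusted p = 0.004) and Cx3cr1, the fractalkine receptor, rose by 1.34 (adjusted p = 0.0162), and 16 of the 18 were not called. Without fl/p30 GMP replicate 3, 5 fell. In fl/BRM2 GMP F13a1 alone was called (-2.60, adjusted p = 0.0187), and not without replicate 2 of fl/+ or fl/BRM2 GMP. The Cx3cr1 call was lost without fl/+ GMP replicate 2 or fl/p30 GMP replicate 1.

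Of 15 granule and neutrophil effector genes, 7 fell in fl/p30 GMP (1.37% of all genes) and none rose. The calprotectin subunit genes S100a8 and S100a9 differed by -4.24 (adjusted p = 0.0328, limma) and -3.74 (adjusted p = 0.0304), and Fcnb, a ficolin gene, by -2.41 (adjusted p = 0.00438). The count was 1 without fl/p30 GMP replicate 1 or 2, 2 without fl/+ GMP replicate 2 and 3 without fl/+ GMP replicate 3. In fl/BRM2 GMP 3 fell (0.642% of all genes), Fcnb (-2.82), Camp (-1.79) and the G-CSF receptor gene Csf3r (-1.35). In fl/p30 preGM 3 fell (1.03% of all genes), the granule genes Ngp (-3.39), Mmp8 (-2.14) and Ltf (-1.32). The preGM count was 0 without fl/p30 preGM replicate 3, 1 without +/+ preGM replicate 2 or fl/p30 preGM replicate 1 or 2, 5 without fl/p30 GMP replicate 1 and 8 without fl/p30 GMP replicate 3. The fl/BRM2 count was 1 without fl/+ GMP replicate 2, fl/BRM2 GMP replicate 2 or 3, +/+ preGM replicate 3 or any fl/p30 preGM array. Of 8 genes listed as repressed by Gfi1, Id2 and Gfi1b rose in both GMP mutants (4.69% of all genes in fl/p30, 1.89% in fl/BRM2). Both calls repeat ones given above, Id2 as 1 of the 8 regulators and Gfi1b as a relative of Gfi1. The fl/BRM2 count was 0 without replicate 2 or 3 of fl/+ or fl/BRM2 GMP. From the same list Hoxa9 fell by 1.18 in fl/p30 preGM (adjusted p = 0.00336, limma). Of 13 genes listed as activated by Spi1, 2 rose and 3 fell in fl/p30 GMP, where 4.69% of all genes rose and 1.37% fell. Il7r, the interleukin-7 receptor gene, was at 1.34, and Csf3r and the oxidase subunit gene Ncf4 were both at -1.32. Csf3r is also in the granule and neutrophil list. The count of falls in the Spi1 list was 0 without fl/+ GMP replicate 2 or 3 or fl/p30 GMP replicate 1 or 2. None of 7 genes listed as activated by Myb was called in the mutant-control comparisons. Between the control stages, where 10.2% of all genes were called, 1 was higher and 3 were lower in GMP than in preGM.

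Some factors of other fates rose beside Id2 and Runx1 in the mutant GMP. Of 23 other haematopoietic fate factors, 6 rose and 1 fell in fl/p30 GMP and 4 rose in fl/BRM2 GMP. The 1 that fell was Lmo2, at -0.80 (adjusted p = 0.00629, limma). Over all genes 4.69% rose and 1.37% fell in fl/p30 GMP, and 1.89% rose and 0.642% fell in fl/BRM2 GMP. Ikzf2, the Ikaros family factor Helios, rose by 2.01 in fl/p30 (adjusted p = 0.000237, limma) and 1.85 in fl/BRM2 (adjusted p = 0.000923), and Gata2, a stem, mast cell and megakaryocyte factor, by 1.93 (adjusted p = 0.000232) and 1.77 (adjusted p = 0.000899). The count of rises in fl/p30 GMP was 3 without fl/p30 GMP replicate 1. Of these factors, Gata1 is also in the erythroid marker list, Nfe2 in the megakaryocyte list and Gata2 in the mast cell list. Each was called higher in both mutants and is counted in both lists. Of 11 erythroid markers, 5 rose in fl/p30 GMP and 6 in fl/BRM2 GMP. Their mean ran from 6.80 to 6.92 in fl/+, 7.63 to 8.33 in fl/p30 and 7.64 to 8.43 in fl/BRM2 GMP. Megakaryocyte markers rose for 4 of 9 in each mutant, with means of 6.23 to 6.37 in fl/+, 6.92 to 7.44 in fl/p30 and 6.95 to 7.35 in fl/BRM2; the count was 1 without fl/p30 GMP replicate 1 or 2 in the first mutant and 1 without fl/BRM2 GMP replicate 2 in the second. Of 11 mast cell, basophil and eosinophil markers, 4 rose and 4 fell in fl/p30 GMP and 4 rose and 2 fell in fl/BRM2 GMP. Cpa3, the mast cell carboxypeptidase gene, rose from a mean of 8.45 in fl/+ to 11.53 in fl/p30 and 11.45 in fl/BRM2, while Prg2, an eosinophil granule gene, fell from 11.05 to 7.60 in fl/p30. The mean over these 11 ran from 7.87 to 8.36 in fl/+, 8.10 to 8.20 in fl/p30 and 8.37 to 8.50 in fl/BRM2, and without fl/BRM2 GMP replicate 2 only 1 fell in fl/BRM2. Markers of maturing neutrophils fell for 5 of 11 in fl/p30 GMP, their mean running from 6.94 to 7.52 in fl/+ and from 5.59 to 6.73 in fl/p30, and for 3 of 11 in fl/p30 preGM, from 6.63 to 7.58 in +/+ and from 5.39 to 5.59 in fl/p30. Without fl/p30 GMP replicate 1 or 2, or without fl/p30 preGM replicate 3 at the earlier stage, none of them was called. The called markers were S100a8, S100a9, Ngp, Camp and Cd177 in GMP, and Ngp, Mmp8 and Ltf in preGM. All are also in the list of granule and neutrophil effector genes above, so these counts repeat calls already given. Over all genes 1.03% fell in fl/p30 preGM. Markers of mature macrophages were not called for any of 11 in the GMP or preGM comparisons of fl/p30, and 6 to 9 of the 11 lay below the array medians in every group. The part of these cell types in the values of the 8 genes was not tested.

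The genes whose levels followed each regulator most closely over the 15 arrays, among those compared, are given by Pearson's r, as a description. Compared were 9585 genes (9586 for Trib1) with a mean at or above the median of all genes, leaving out clone and predicted symbols. The arrays share group differences and, for fl/p30, animals. With the group means taken out, r to these closest genes ran from 0.47 (Limd1 with Trib1) to 0.97 (Ssbp3 with Runx1). Irf8 was followed by Hpse, the heparan sulfate cleaving enzyme heparanase (r = 0.967), Il6st, the shared interleukin-6 receptor subunit (r = 0.927), and Pcp4l1 (r = 0.919). Hpse differed by -1.56 between fl/p30 and control GMP (adjusted p = 0.0107, limma) and Il6st differed by -1.96 (adjusted p = 0.00146). Id2 was followed by Elf4 (r = 0.948), the pocket protein gene Rbl2 (r = 0.947) and the tetraspanin gene Cd9 (r = 0.934). For Runx1 the closest were Ripor2 and Crtc3 (both r = 0.93) and Ssbp3 (r = 0.919). For Gfi1 they were Lrp1 (r = 0.934), the chromatin remodeller gene Chd7 (r = 0.929, read by the brightest of 30 probe sets) and the long noncoding RNA Morrbid (r = 0.926). Spi1 ran with Lman2 (r = 0.94), Slc35c1 (r = 0.927) and Grn, the progranulin gene (r = 0.908). The other three genes had looser company: Myb reached 0.856 with Metap1d and Ddb2, Klf4 0.839 with Klf9, and Trib1 0.828 with Slc16a13 and Limd1.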

How the data were processed

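RNA from 15 sorted progenitor samples, 20 ng each, was amplified and hybridised to Affymetrix Mouse Gene 1.0 ST arrays, per the labels' protocols. The authors deposited log2 values after RMA from the affy package, per the submitters' processing notes; the sources used here give no versions. RMA equalises the arrays' distributions, so a change shared by most genes would not show, and 3 arrays a group limit the precision.

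Of 34760 probe sets, 21640 had 1 gene symbol, 1321 several and 11799 none in the platform annotation. The brightest probe set stood for a gene with several, which left 19937 genes. limma 3.58.1 in R 4.3.3 fitted 5 group means over all 15 arrays, with Benjamini-Hochberg adjustment over all genes, and the threshold for a call was an adjusted p under 0.05. The pipeline was tested on simulated data. Errors are SE of the fit and intervals are 95%.

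The 8 genes, the lists and the tests were chosen with earlier results of these data known. Named beside the 8 genes were Cebpa, the 3 genes with the highest correlation to each, and up to 3 called genes with the largest difference per list and comparison. The correlations were taken only over genes at or above the median of all genes, without clone and predicted symbols. Marker genes named were chosen after their values were seen. Of 162 listed pathway genes, 152 were measured.

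The labels give the same animal numbers to preGM and GMP fl/p30 arrays. Deviations from the group means correlated at 0.334, 0.32 and 0.116 for the arrays of an animal, so that comparison was also fitted with the animal as a block.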

Additional observations from a re-analysis of the deposited data

How the results depend on the processing

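The alternatives were leaving out each array, fitting only the arrays compared, an intensity trend, array weights, a further quantile normalization, leaving out dim genes, averaging probe sets and a replicate block; leaving out both arrays of the replicate 1 fl/p30 animal was chosen after seeing the data. Over these, the differences of the 8 genes and Cebpa kept direction and side of the threshold in 1185 cases, lost a call in 46, gained one in 30 and changed sign, without a call, in 27. With 3 arrays a group and dim signal for Trib1 and Klf4, differences well under 1 could be missed.

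In order fl/p30 GMP, fl/BRM2 GMP, fl/p30 against fl/BRM2 GMP, fl/p30 preGM, the fl/p30 stage step, the control stage step and the interaction, all-gene counts were 1209, 505, 1, 334, 128, 2036 and 1. Fitting only the arrays compared gave 172, 131, 0, 1070, 29, 746 and 4, and array weights 4063, 2187, 283, 1167, 1948, 4660 and 1991. The weights were 0.33, 6.02 and 0.787 for the fl/p30 GMP arrays and 0.305, 0.327 and 1.49 for the fl/+ GMP arrays. In that setting the mean of each of these groups rests mostly on 1 array. Leaving out arrays one at a time gave 537 to 3078, 134 to 2218, 0 to 12, 101 to 471, 26 to 249, 636 to 4686 and 0 to 1482; counts of the 8 genes ran 3 to 5, 0 to 5, 0 to 0, 1 to 2, 0 to 0, 1 to 2 and 0 to 1. Without both arrays of that animal the counts that moved were 508 and 3 of the 8 genes in fl/p30 GMP, 0 between the alleles, 189 and 1 in preGM, and 54 in the fl/p30 step. An intensity trend gave 2 genes in the interaction and a further quantile normalization 2 between the alleles. Of the 8 genes, fitting only the arrays compared called 1 in fl/p30 GMP and 2 in the control step; array weights called 5 in fl/BRM2 GMP, 1 in the fl/p30 step, 4 in the control step and 2 in the interaction; quantile normalization and leaving out dim genes each called 2 in the control step.

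With the replicate number as a block, 0 genes were called between the alleles and 0 in the interaction, 1 of the 8 genes in preGM, where Trib1 was lost (adjusted p = 0.0624), and 2 in the control step, where Runx1 was gained (0.036). In fl/BRM2 GMP Id2 was lost (0.0539) and Gfi1 gained (0.0435), so that count stayed at 3. The numbers mark no shared animal outside fl/p30, and their correlations there ran from -0.29 to 0.0642. In the fl/p30 step the animal as a random block called 681 genes and 1 of the 8, and as a fixed block 71 genes.

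Sign changes, all uncalled, were as follows. Spi1 became 0.25 with array weights and 0.09 without that animal in fl/p30 GMP, and -0.14 with array weights in the control step. Trib1 in fl/BRM2 GMP became 0.00 after quantile normalization. Without that animal, Runx1 between the alleles became -0.18, and in the fl/p30 step Irf8 became 0.04, Klf4 0.00 and Trib1 -0.02. Cebpa in that step became 0.14 with array weights, 0.01 after quantile normalization and 0.26 without that animal. Over single leave-outs, the fl/p30 step ran from -0.25 to 0.08 for Klf4, -0.02 to 0.10 for Trib1, -0.57 to 0.00 for Irf8 and -0.14 to 0.17 for Cebpa. Runx1 ran from -0.27 to 0.01 in preGM and -0.18 to 0.32 between the alleles. Spi1 ran from -0.39 to 0.10 in fl/p30 GMP, -0.49 to 0.02 in fl/BRM2 GMP, -0.20 to 0.35 between the alleles and -0.16 to 0.32 in the control step. Trib1 in fl/BRM2 GMP ran from -0.13 to 0.05, and Gfi1 between the alleles from -0.33 to 0.03. The cause was not tested for any of these changes.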
